A study of Mus musculus with 3 samples.

Results

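The nuclear genes of oxidative phosphorylation were read in 3 RNA-seq libraries, each of cells sorted from the villi of the upper small intestine of mice. The genes were chosen by symbol: protein-coding genes that start with Nduf, Uqcr, Atp5, Cox4, Cox5, Cox6, Cox7 or Cox8, together with Sdha, Sdhb, Sdhc, Sdhd and Cyc1. The rule found 94 genes among the 23993 genes of the tables. Of these, 44 belong to complex I, 4 to complex II, 9 to complex III, 20 to complex IV and 17 to complex V, the ATP synthase. Assembly factors are among them, 8 of complex I, Cox7a2l of complex IV and Atp5s of complex V, so that 84 are subunits or isoforms of subunits.

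All mice were of the C57BL/6 strain. The GIP-GFP library holds cells of a reporter mouse in which green fluorescent protein marks cells that express GIP, an incretin hormone. The Ngn3-TOMATO library holds cells from male mice that carried Neurogenin3-Cre and the ROSA26-LoxP-STOP-LoxP-tomato indicator, sorted as tomato-positive and negative for the leukocyte antigen CD45. The Ngn3-negative library holds tomato-negative cells of the same breeding and stain, described by the submitters as enterocytes, goblet cells and Paneth cells. The tomato label is permanent, so it also marks cells whose progenitors used the Cre driver. Villi were released with EDTA and digested with collagenase before the sort. Each group is 1 library made from equal amounts of several RNA samples; the number and age of the mice, and a CD45 gate for the GIP-GFP cells, are not given in the sources used here. There is therefore no replicate, no test and no p-value, and every difference below compares 3 libraries, not 3 conditions.

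Oxidative phosphorylation passes electrons from NADH and succinate to oxygen along complexes of the inner mitochondrial membrane, and uses the proton gradient so formed to make ATP. Complex I oxidises NADH, complex II oxidises succinate and is also an enzyme of the tricarboxylic acid cycle, complex III passes electrons to cytochrome c, complex IV reduces oxygen, and complex V is the ATP synthase. Apart from complex II, each complex joins subunits made from nuclear genes with a few made from mitochondrial DNA. In the small intestine, absorptive enterocytes spend much ATP on nutrient and ion transport, while enteroendocrine cells secrete hormones.

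Levels are the deposited FPKM values summed over the transcripts of a gene and divided by a common number, so that the mean library total is 1000000. They are called scaled FPKM here. Log2 ratios were taken after a pseudocount of 1 was added, which understates the change of low genes. The 95% interval given with a ratio comes from the deposited confidence limits and covers read counting and assignment in those libraries only, not variation between mice. The assembled coverage of the GIP-GFP library came to 592.1 Mb, that of Ngn3-TOMATO to 1380 Mb and that of Ngn3-negative to 1030 Mb. The median standard error of a level was 3.54% of the level for GIP-GFP, 2.32% for Ngn3-TOMATO and 2.26% for Ngn3-negative over the 87 genes that reached 1 scaled FPKM.

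The libraries were checked against their labels. Gip stood at 243446 scaled FPKM in GIP-GFP, which was 23.4% of the library total, at 28254 for Ngn3-TOMATO and at 735.7 for Ngn3-negative. Neurog3 itself was at 4.51, 24.2 and 14.0 in the same order. The summed level of 12 enterocyte markers was 11459 for GIP-GFP, 7926 for Ngn3-TOMATO and 40385 for Ngn3-negative. The 7 goblet markers summed to 5397, 172231 and 31147, and the 6 Paneth markers to 2289, 27085 and 4804, so that both were highest in the tomato-positive cells and not in the cells described as holding them. The 12 enteroendocrine markers summed to 299484, 111854 and 1925. The 8 cycling markers summed to 151.3, 182 and 586, and the 6 lymphocyte markers to 338, 56.3 and 140.4. No marker of the enterocyte, goblet, Paneth, enteroendocrine or lymphocyte lists was at 0 in any library; of the cycling markers, Tk1 was at 0 in GIP-GFP and Ngn3-TOMATO. In such bulk libraries, fewer cells of a type and less RNA per cell cannot be told apart.

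Promoters of these genes are known to be bound by NRF1, GABPA and YY1, factors that couple nuclear and mitochondrial gene expression. RefSeq promoter windows (GRCm38.p6, 250 bases before to 50 after a start) were found for 76 of the 94 genes, 81 windows in all. Each was searched on both strands for the NRF1 core GCATGCG, the GABPA and ETS core CCGGAAG and the YY1 core ANATGGC. The NRF1 core differs from its reverse complement by a shift, so overlapping matches on opposite strands mark a single site and genes, not matches, were counted. The stretches below are the 100 bases before the start. The complex II genes are shown because their levels differed most between the libraries as a group, and Ndufa1 and Ndufs4 because they were among the subunits with the highest GIP-GFP to Ngn3-negative ratios. Capitals mark a match to any of the 3 cores, and each stretch reads 5′ to 3′ on the strand of its gene.
Sdha: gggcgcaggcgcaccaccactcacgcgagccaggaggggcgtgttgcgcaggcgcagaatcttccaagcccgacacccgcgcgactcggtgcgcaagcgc
Sdhb: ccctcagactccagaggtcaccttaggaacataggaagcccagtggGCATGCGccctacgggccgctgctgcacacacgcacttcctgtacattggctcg
Sdhd: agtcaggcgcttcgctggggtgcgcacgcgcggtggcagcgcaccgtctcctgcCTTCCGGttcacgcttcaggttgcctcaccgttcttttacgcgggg
Ndufa1: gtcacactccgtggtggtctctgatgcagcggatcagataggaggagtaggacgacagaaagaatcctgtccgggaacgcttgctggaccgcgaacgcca
Ndufs4: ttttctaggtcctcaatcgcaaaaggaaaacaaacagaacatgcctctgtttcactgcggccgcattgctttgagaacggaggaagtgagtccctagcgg
The Sdha stretch is chr13:74350241-74350340 on the minus strand, the Sdhb stretch chr4:140961171-140961270 on the plus strand and the Sdhd stretch chr9:50603850-50603949 on the minus strand. The Ndufa1 stretch is chrX:37191239-37191338 and the Ndufs4 stretch chr13:114388095-114388194, both on the minus strand. The Sdhb stretch holds the NRF1 core and the Sdhd stretch the GABPA and ETS core on the opposite strand. The other 3 stretches hold none of the cores, which says only that these letters are not in these bases. In the full windows searched, Sdha, Ndufa1 and Ndufs4 each hold 1 YY1 core outside the bases shown, and Sdhb also holds a GABPA and ETS core. A window of Ndufa7, not shown, holds a YY1 core as well. Sdhc has no window in the tables used.

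Over the full windows, the NRF1 core was found in 13 of 76 genes (17.1%), against 4.02% of all 27025 RefSeq genes and 7.01% of the 10387 protein-coding genes measured here. The GABPA and ETS core was found in 18 genes (23.7%), against 9.93% of all genes and 19.0% of those measured. The YY1 core was found in 26 genes (34.2%), against 17.1% and 17.4%. Any of the 3 was found in 48 genes (63.2%), against 27.9% and 37.0%. By complex, the YY1 core was found in 14 of 32 complex I subunits and in 0 of 5 complex III subunits, and the NRF1 core in 3 of 32 and 2 of 5. These counts describe letters in the windows and are not binding sites. Among the regulators themselves, Nrf1 stood at 28.5 scaled FPKM for GIP-GFP, 17.6 for Ngn3-TOMATO and 20.7 for Ngn3-negative, Gabpa at 26.2, 28.1 and 41.4, and Yy1 at 79.8, 74.2 and 70.8. Gabpa was thus highest in Ngn3-negative and Nrf1 in GIP-GFP.

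Most of these genes were lower in both reporter libraries than in Ngn3-negative. Of the 87 genes that reached 1 scaled FPKM in a library, 81 had their highest level in Ngn3-negative. The 94 genes together made up 2.86% of the total of GIP-GFP, 2.59% of Ngn3-TOMATO and 5.60% of Ngn3-negative. With Gip left out of the totals these shares were 3.73%, 2.66% and 5.60%, so the order of the libraries stayed the same. Other very abundant genes, such as Zg16 at 90596 in Ngn3-TOMATO, stayed in the totals. The wider gap between the reporter libraries is therefore not read as a result. The other 7 genes, Atp5g2, Cox4i2, Cox6a2, Cox7b2, Cox8b, Cox8c and Ndufa4l2, stayed under 1 scaled FPKM in all 3 libraries and enter no count below.

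In Ngn3-TOMATO against Ngn3-negative, the median log2 ratio of the 87 genes was -0.86, with quartiles of -1.02 and -0.67. The ratio was below 0 for 86 of 87 genes, against 48.3% of the 13394 genes measured, and the interval lay wholly below 0 for 85, against 39.3%. At least 2-fold lower were 24 genes, against 9.91% of all genes, and at least 2-fold higher were 0, against 19.2%. The median over all genes was 0.03. Ratios ran from -1.56 for Cox6b2, a testis-type isoform of a complex IV subunit, to 0.24 for Ndufaf3, a complex I assembly factor. The differences were thus modest in size and shared across most of the list. The count past 2-fold moved with the scaling of the libraries, from 10 to 61. The median relative to all genes was between -0.91 and -0.89. A scaling shifts all genes of a library alike, so that difference could hardly move.

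In GIP-GFP against Ngn3-negative, the median of the 87 genes was -0.73, with quartiles of -0.98 and -0.42. The ratio was below 0 for 82 genes, against 46.9% of the 13426 measured, and the interval was wholly below 0 for 75, against 37.3%. At least 2-fold lower were 20 genes, against 13.8% of all genes, and at least 2-fold higher were 0, against 20.9%. The median over all genes was 0.07. Ratios ran from -2.49 for Cox7c to 0.44 for Ndufaf7. The count past 2-fold ran from 9 to 41 over the scalings. The median relative to all genes ran from -0.81 to -0.80, a difference that scaling leaves nearly fixed. This comparison and the previous one share the Ngn3-negative library, so they are not independent of each other.

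**Figure D1:**
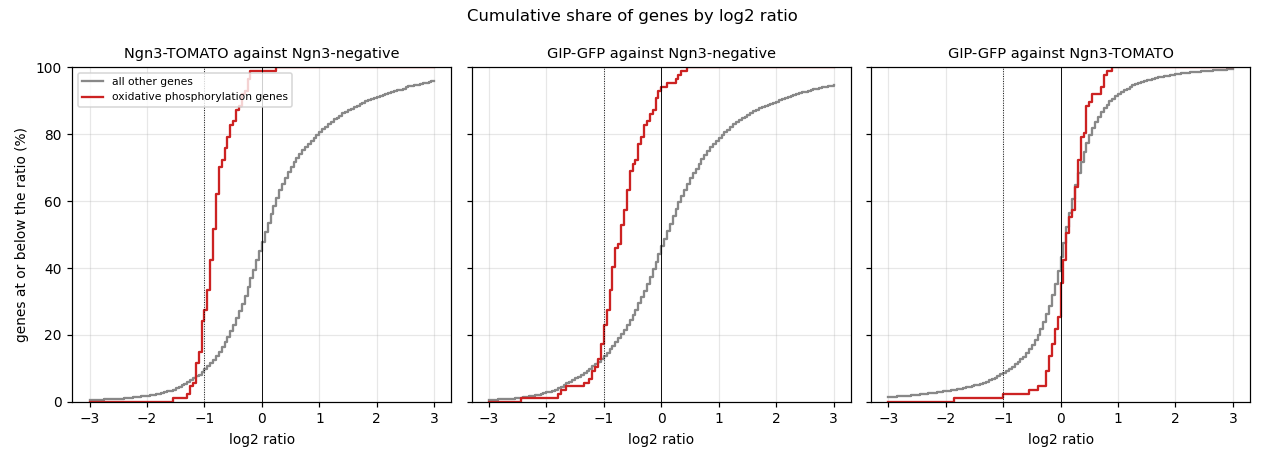
Cumulative share of genes (vertical axis, percent) at or below a log2 ratio of scaled FPKM (horizontal axis) in the 3 comparisons. The red line is the oxidative phosphorylation genes and the grey line all other genes; in the first and second panels the red line lies to the left and reaches 100% near 0, with medians of -0.86 and -0.73, while between the reporter libraries the lines lie closer together, with 35.6% of the red and 43.2% of the grey at or below 0.

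The genes kept nearly the same order of abundance in the 3 libraries. Over the 87 genes, log2 levels in Ngn3-TOMATO and Ngn3-negative had a Pearson r of 0.986 and a Spearman rho of 0.980. The values were 0.965 and 0.956 for GIP-GFP and Ngn3-negative, and 0.977 and 0.980 for the reporter libraries. These are descriptions across genes, which share the annotation and the length correction and are not independent replicates.

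**Figure D2:**
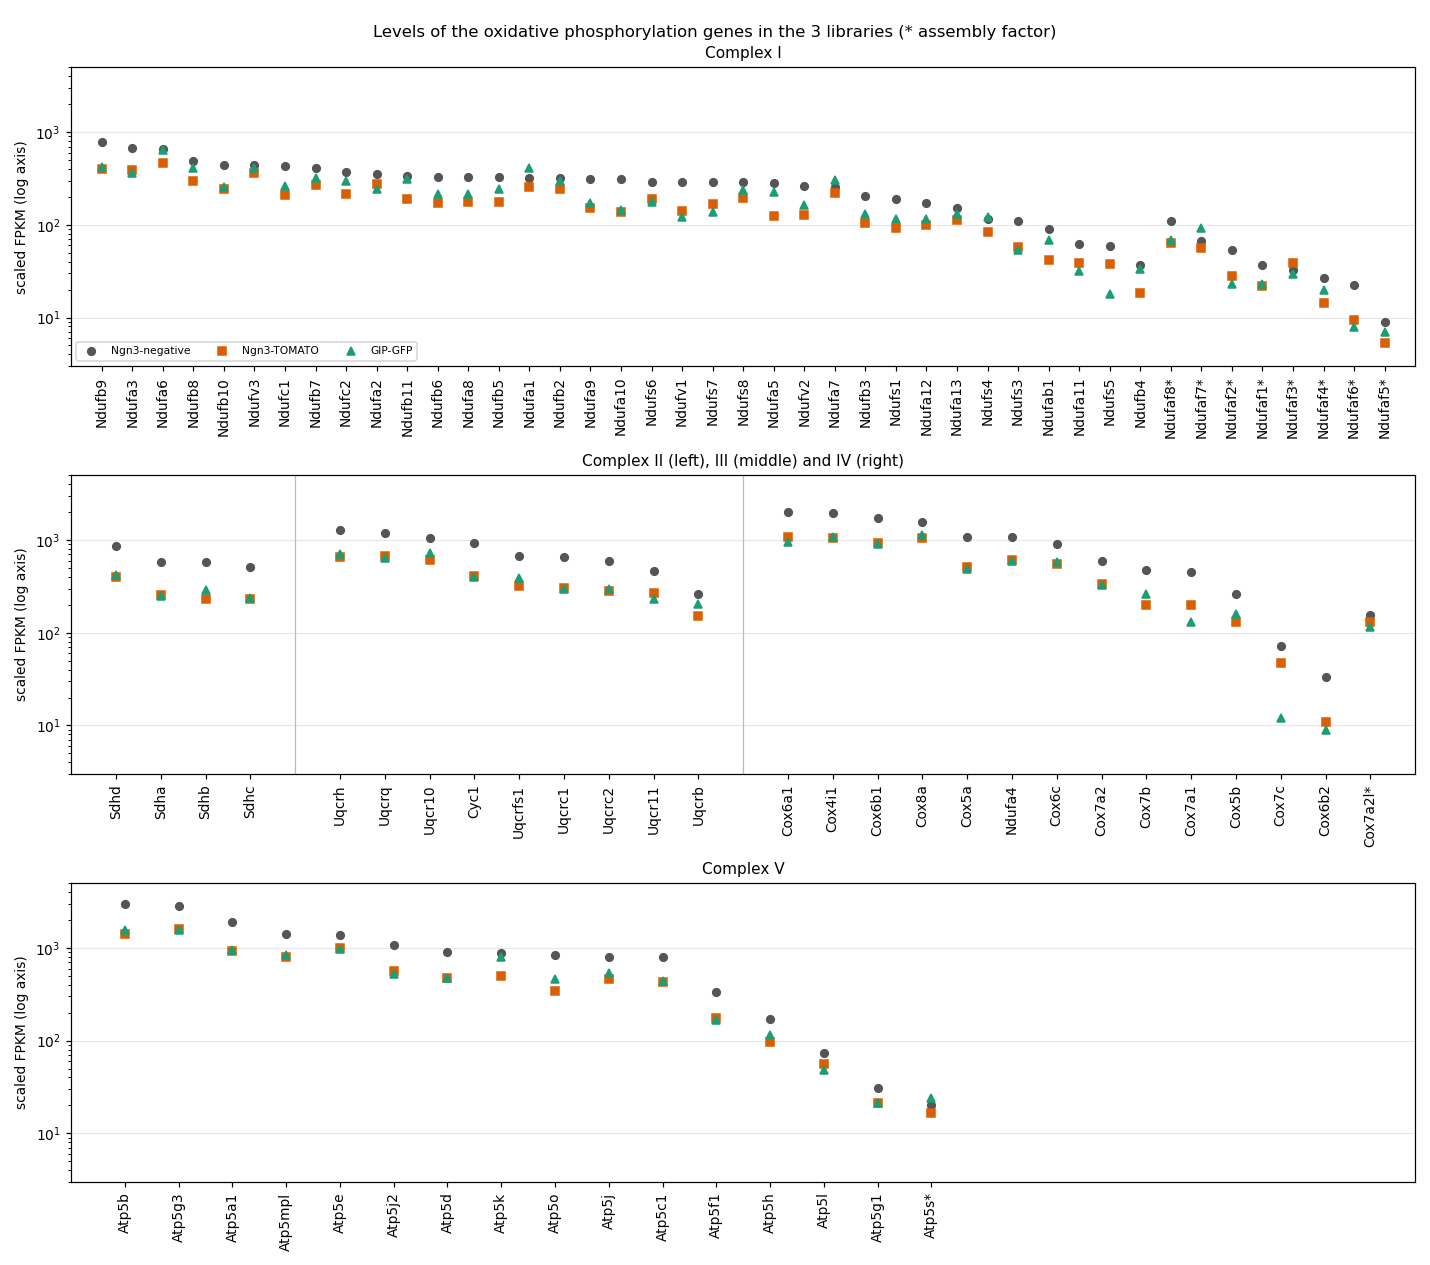
Scaled FPKM (log axis) of 86 of the 87 genes that reached 1 scaled FPKM, by complex and ordered by the Ngn3-negative level, with assembly factors marked by an asterisk at the end of each complex. Each symbol is the value of a gene in 1 library (grey circle, Ngn3-negative; orange square, Ngn3-TOMATO; green triangle, GIP-GFP); the grey circle is the highest for all but 6 genes.

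Complex II, succinate dehydrogenase, showed the largest median difference of the 5 complexes in both comparisons with Ngn3-negative. Its median log2 ratio was -1.16 in Ngn3-TOMATO and -1.05 in GIP-GFP. All 4 genes were at least 2-fold lower in Ngn3-TOMATO and 3 of 4 in GIP-GFP, against 9.91% and 13.8% of all genes. No 36-base stretch of the transcripts of these 4 genes occurs in annotated transcripts of another gene.

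Sdha, the flavoprotein that oxidises succinate (chr13:74322255-74350240, mm10, a transcript of 2859 bases), stood at 250.5 scaled FPKM for GIP-GFP, 256 for Ngn3-TOMATO and 584 for Ngn3-negative. The reporter libraries lay close together and Ngn3-negative more than 2-fold above them. The log2 ratio to Ngn3-negative was -1.19 in Ngn3-TOMATO (interval -1.22 to -1.15) and -1.22 in GIP-GFP (-1.26 to -1.17). Sdhb, the iron-sulfur subunit (chr4:140961271-140979192), stood at 291, 233 and 577 in the same order of libraries. It had the lowest ratio of the complex in Ngn3-TOMATO, -1.31 (-1.37 to -1.25), while in GIP-GFP it was -0.99 (-1.06 to -0.91). Sdhb was the complex II gene that differed most between the reporter libraries, with a GIP-GFP to Ngn3-TOMATO ratio of 0.32 (0.24 to 0.40).

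Sdhc, a membrane anchor (chr1:171129157-171150603), stood at 237, 233 and 509, with ratios to Ngn3-negative of -1.13 in Ngn3-TOMATO and -1.10 in GIP-GFP. Sdhd, the other anchor (chr9:50596340-50603849), was the most abundant of the complex at 425, 395 and 855, with ratios of -1.11 and -1.01. Both anchors followed the pattern of Sdha, with little between the reporter libraries.

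Complex III, which carries electrons from ubiquinol to cytochrome c, had medians of -0.98 in Ngn3-TOMATO and -0.89 in GIP-GFP. All 9 genes were below 0 in both, against 48.3% and 46.9% of all genes. At least 2-fold lower were 4 (44.4%) and 3 (33.3%), against 9.91% and 13.8% of all genes. Cyc1, the cytochrome c1 haem protein (chr15:76343523-76345934), was at 399.5 scaled FPKM for GIP-GFP, 407 for Ngn3-TOMATO and 939.7 for Ngn3-negative. Its ratios, -1.21 (-1.49 to -0.93) in Ngn3-TOMATO and -1.23 (-1.30 to -1.17) in GIP-GFP, were the lowest of the complex. Uqcrfs1, the Rieske iron-sulfur protein, was at 388, 318.5 and 671, with ratios of -1.07 and -0.79. The large core proteins Uqcrc1 (298, 305 and 651) and Uqcrc2 (300.2, 279 and 592) had ratios of -1.09 and -1.08 in Ngn3-TOMATO and of -1.13 and -0.98 in GIP-GFP. These 4 genes all stood about 2-fold higher in Ngn3-negative.

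Uqcrh, the hinge protein and the most abundant complex III gene in Ngn3-negative, was at 716, 651.5 and 1283. Uqcr11 had the highest ratio in Ngn3-TOMATO, -0.77, from 230.0, 269.5 and 462. Uqcrb, a small subunit near the quinone site, had the highest in GIP-GFP, -0.37, from 202, 151.5 and 261.5, and 54.0% of the 36-base stretches of its transcripts also occur in transcripts of other genes. In Ngn3-TOMATO the 5 small subunits lay between -0.98 and -0.77, above the 4 larger ones, while in GIP-GFP the ranges overlapped.

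Complex IV, cytochrome c oxidase, had 13 measured subunits, with medians of -0.90 in Ngn3-TOMATO and -0.88 in GIP-GFP. All 13 were below 0 in both comparisons, against 48.3% and 46.9% of all genes. At least 2-fold lower were 4 (30.8%) and 5 (38.5%), against 9.91% and 13.8% of all genes. Cox4i1, the ubiquitous form of a regulatory subunit, stood at 1093 scaled FPKM for GIP-GFP, 1057 for Ngn3-TOMATO and 1984 for Ngn3-negative, with ratios of -0.91 (-0.96 to -0.86) and -0.86 (-0.93 to -0.79). Cox5a, a matrix-side subunit, was at 490.5, 506 and 1085, with ratios of -1.10 and -1.14. Cox5b, the zinc-binding subunit, was at 159, 132 and 262, with ratios of -0.98 and -0.72. Cox5a and Cox5b share 42.4% and 37.2% of their 36-base stretches with transcripts of other genes, and Cox4i1 shares none. The 3 were all close to 2-fold higher in Ngn3-negative.

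Abundant complex IV genes included Cox6a1 at 964, 1081 and 2021 and Cox8a, a small membrane subunit, at 1125, 1063 and 1584. Cox8a had the highest ratio of the 13 measured subunits of the complex in both comparisons, -0.57 in Ngn3-TOMATO and -0.49 in GIP-GFP. The lowest ratios were those of Cox7c in GIP-GFP and Cox6b2 in Ngn3-TOMATO, which are low genes. Cox7c stood at 11.9, 46.9 and 71.4, with a GIP-GFP to Ngn3-negative ratio of -2.49 (-3.13 to -1.84), and 50.1% of its 36-base stretches occur in transcripts of 5 other genes. Cox6b2 stood at 8.84, 10.8 and 33.7.

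Several complex IV subunits have tissue forms, and apart from Cox7a1 the tissue forms were listed at low values or at 0. Genes that every cell uses, such as Rps25, Rpl36a and Surf1, were also listed at 0 in all 3 libraries, so a 0 is not read as absence. Cox4i2, the lung form, was at 0.298 scaled FPKM for GIP-GFP, 0.343 for Ngn3-TOMATO and 0.149 for Ngn3-negative, at most 0.0325% of the Cox4i1 and Cox4i2 sum. Cox6a2, the heart and muscle form of Cox6a1, was listed at 0 in GIP-GFP and at 0.284 and 0.575 in the others. Cox8b, Cox8c and Cox7b2 were listed at 0 in all 3 libraries. Cox6b2 made up 0.962%, 1.14% and 1.91% of its sum with Cox6b1, which stood at 910, 940.7 and 1731. Ndufa4, a subunit first assigned to complex I and now placed in complex IV, was at 589, 614 and 1083, and its paralogue Ndufa4l2, a hypoxia-induced form, was listed at 0 throughout.

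Cox7a1 is the heart and skeletal muscle form and Cox7a2 the ubiquitous form. Cox7a1 (chr7:30184171-30186030) stood at 132 scaled FPKM for GIP-GFP, 199 for Ngn3-TOMATO and 457 for Ngn3-negative, while Cox7a2 stood at 329, 332 and 601. Cox7a1 was therefore 28.6% of the pair for GIP-GFP, 37.5% for Ngn3-TOMATO and 43.2% for Ngn3-negative. Its ratio to Ngn3-negative was -1.20 (-1.34 to -1.05) in Ngn3-TOMATO and -1.79 (-2.04 to -1.53) in GIP-GFP, against -0.85 and -0.87 for Cox7a2. No 36-base stretch of Cox7a1 occurs in another gene. The muscle markers Des, Actg2, Tagln and Myh11 summed to 0.0419, 0.456 and 0.463 in the same order, at or near 0, with Des, Actg2 and Tagln at 0 in GIP-GFP. Cox7a2l, which takes part in joining complexes III and IV into supercomplexes, was at 115, 131 and 154, with ratios of -0.23 and -0.42.

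Complex V, the ATP synthase, had 15 measured subunits, and its median was -0.84 in both comparisons. All 15 were below 0 in both, against 48.3% and 46.9% of all genes. At least 2-fold lower were 3 (20%) and 2 (13.3%), against 9.91% and 13.8% of all genes, so the second share was near that of all genes. Atp5b, the catalytic beta chain (chr10:128083307-128090388), was the most abundant of all 94 genes in Ngn3-negative at 2958 scaled FPKM, and stood at 1553 in GIP-GFP and 1425 in Ngn3-TOMATO. Its ratios were -1.05 (-1.07 to -1.03) in Ngn3-TOMATO and -0.93 (-0.95 to -0.91) in GIP-GFP. Atp5a1, the alpha chain, was at 939.4, 917 and 1910, with ratios of -1.06 and -1.02. Atp5c1, the gamma chain of the rotor, was at 444, 429.9 and 794, with ratios of -0.88 and -0.84. The catalytic head genes were thus about 2-fold higher in Ngn3-negative.

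The c ring of the rotor is encoded by 3 genes for the same mature protein. Atp5g3 carried nearly all of the signal at 1574, 1590 and 2827, with ratios of -0.83 and -0.84. Atp5g1 stood at 21.04, 21.09 and 31.1 and Atp5g2 at 0.373, 0.590 and 0.376, and 57.5% and 87.8% of their 36-base stretches occur in transcripts of other genes, so their levels are uncertain. Atp5g3 shares none. The level of a subunit c gene in these tables therefore rests on Atp5g3.

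At the ends of the complex V range, Atp5o, the stalk protein that confers oligomycin sensitivity, had the lowest ratio in Ngn3-TOMATO, -1.30, from 461, 344 and 846. Atp5l, a small membrane subunit, had the highest of the subunits, -0.40, from 48.3, 56.0 and 74.2, and 78.8% of its stretches occur in transcripts of other genes. In GIP-GFP, Atp5k, another small membrane subunit, had the highest ratio of the subunits, -0.13, from 801.5, 493 and 877. A second Atp5k transcript, of 193 bases, is under the length minimum and stood at 679, 672 and 1446. With it, the Atp5k ratio was -0.65, below the -0.53 of Atp5e, so the rank rests on that minimum. The factor Atp5s was low throughout, at 24.3, 16.7 and 20.1, with ratios of -0.25 and 0.26.

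**Figure D3:**
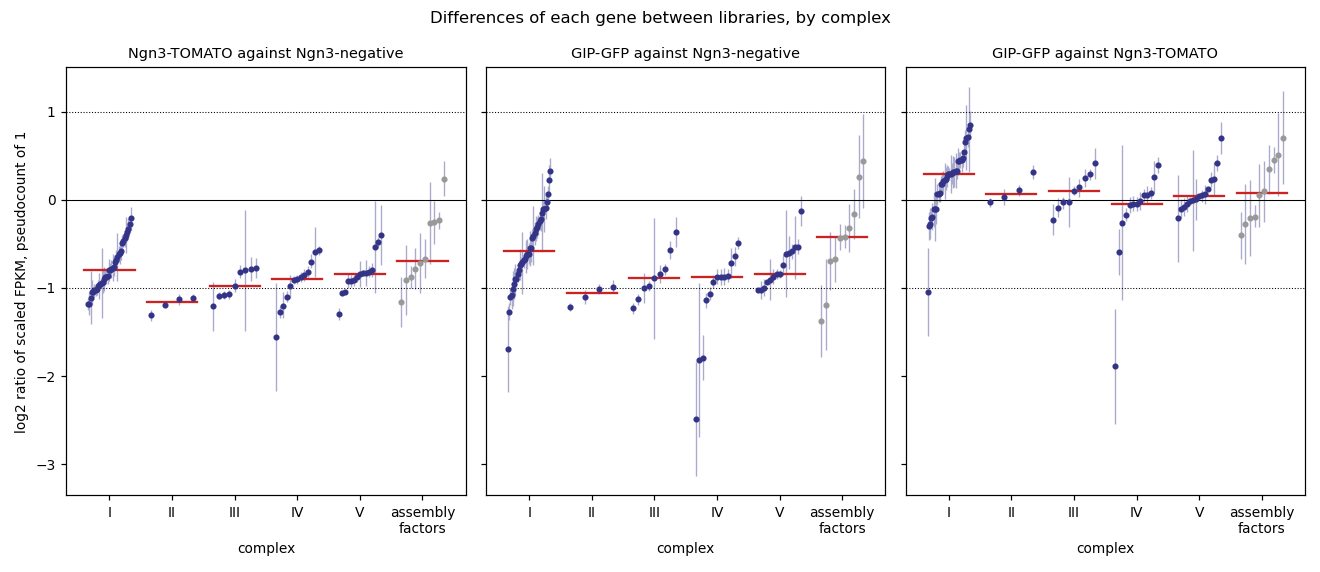
Log2 ratio of scaled FPKM (vertical axis, pseudocount of 1) of each gene in the 3 comparisons, by complex. Points are genes ordered by ratio, thin lines their 95% counting intervals, red bars the group medians (from -0.80 to -1.16 in the first panel for complexes I to V) and dotted lines a 2-fold difference. Complex II lies lowest in the first and second panels, and complex I is spread upward in both panels with GIP-GFP.

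Complex I, NADH dehydrogenase, had the smallest differences of the 5 complexes. The median of its 36 subunits was -0.80 in Ngn3-TOMATO and -0.58 in GIP-GFP. All 36 were below 0 in Ngn3-TOMATO and 33 in GIP-GFP, against 48.3% and 46.9% of all genes. At least 2-fold lower were 8 (22.2%) and 5 (13.9%), against 9.91% and 13.8% of all genes, so the second share was near that of all genes. The 7 core subunits encoded in the nucleus had medians of -0.95 and -0.73, and the 29 accessory subunits of -0.77 and -0.43.

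Ndufv1, which holds the NADH site and its flavin, was at 120.5 scaled FPKM for GIP-GFP, 139.9 for Ngn3-TOMATO and 291 for Ngn3-negative. Its ratios of -1.05 (-1.12 to -0.99) and -1.27 (-1.36 to -1.17) were the lowest of the core in both comparisons. Ndufv2, its iron-sulfur partner, was at 162, 129 and 260.1, and Ndufs1, the largest subunit with several iron-sulfur clusters, at 115, 93.7 and 192. Both were about 2-fold lower in Ngn3-TOMATO (-1.01 and -1.02) and less so in GIP-GFP (-0.68 and -0.73).

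Ndufs7, which lies at the quinone site, was at 136, 168 and 289.5, and was lower in GIP-GFP than in Ngn3-TOMATO (-0.30, -0.46 to -0.14). Ndufs8, a carrier of iron-sulfur clusters, was at 237, 193 and 289 and had the highest ratios of the core, -0.58 and -0.28. Ndufs3 was at 54.0, 58.3 and 109.4, and 50.1% of its stretches occur in transcripts of other genes.

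Among the accessory subunits of complex I, Ndufa1, Ndufa7 and Ndufs4 had ratios above 0 in GIP-GFP. Ndufa1, a membrane-arm subunit (chrX:37187589-37191238), stood at 407 scaled FPKM for GIP-GFP, 257 for Ngn3-TOMATO and 323 for Ngn3-negative. GIP-GFP was the highest library, by 0.33 over Ngn3-negative (0.20 to 0.47; 0.12 with equal library totals) and by 0.66 over Ngn3-TOMATO (0.53 to 0.79). Ndufa7, a subunit of the peripheral arm, was at 303, 223 and 257.5, with ratios of -0.21 in Ngn3-TOMATO and 0.23 (0.07 to 0.39) in GIP-GFP, which were the highest ratio of the complex I subunits in the first comparison and the next to highest in the second. With equal library totals the latter was 0.02, so GIP-GFP and Ngn3-negative could not be ordered for Ndufa7. Ndufs4, a subunit whose loss causes Leigh syndrome in people, was at 121, 82.9 and 116.5. Its GIP-GFP ratio of 0.06 had an interval from -0.05 to 0.16, and it was -0.16 when library totals were set equal, so these libraries could not be ordered for Ndufs4 either.

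Ndufa6 was the most abundant complex I gene in both reporter libraries, at 644 in GIP-GFP and 471 in Ngn3-TOMATO against 652 in Ngn3-negative, while Ndufb9 was the most abundant in Ngn3-negative, at 421, 400.3 and 788.9. Ndufa5 and Ndufa10 had the lowest ratio in Ngn3-TOMATO, -1.18 each, from 226, 125 and 284 and from 145, 137 and 311. They parted in GIP-GFP, where Ndufa5 was at -0.33 and Ndufa10 at -1.10. Ndufs5, a subunit of the intermembrane side, had the lowest in GIP-GFP, -1.69, from 17.8, 37.8 and 59.7, and 45.8% of its stretches occur in transcripts of other genes.

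The 8 assembly factors of complex I were low, from 5.30 to 111 scaled FPKM, with medians of -0.75 in Ngn3-TOMATO and -0.55 in GIP-GFP. Ndufaf6 had the lowest ratio in both, -1.16 and -1.38, from 7.98, 9.40 and 22.3. Ndufaf3, at 29.2, 38.9 and 32.7, was the only gene of the 87 with a ratio above 0 in Ngn3-TOMATO, 0.24 (0.04 to 0.44), which was 0.00 with equal library totals. Its transcript match is also poor, and 0 genes were above 0 when poorly matched transcripts were left out. Ndufaf7 had the highest ratio in GIP-GFP, 0.44 (-0.09 to 0.97), from 91.8, 56.0 and 67.5. Most of that value came from a transcript of 285 bases whose match to the gene is poor, and without transcripts under 500 bases the ratio was -0.60.

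Between the reporter libraries the genes differed little, with complex I as the highest of the 5 complexes in GIP-GFP. The median log2 ratio of GIP-GFP to Ngn3-TOMATO over the 87 genes was 0.10, against 0.08 over all 13683 genes measured. The interval was wholly above 0 for 45 genes, against 39.3% of all genes, and wholly below 0 for 11, against 28.2%. At least 2-fold lower in GIP-GFP were 2 genes, Cox7c (-1.89) and Ndufs5 (-1.05), against 8.68% of all genes, and at least 2-fold higher were 0, against 8.00%. Both genes share much of their sequence with other transcripts, and the count was 0 without such genes.

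By complex, the GIP-GFP to Ngn3-TOMATO median was 0.29 for the 36 complex I subunits, 0.07 for complex II, 0.10 for complex III, -0.05 for complex IV and 0.04 for complex V. The complex I median was not particular to it. In the same comparison it was 0.34 for the 11 electron and nucleotide carrier genes described below and 0.30 for the 12 enterocyte markers. It was 0.18 for the tricarboxylic acid cycle and 0.09 for the mitochondrial ribosome. The interval lay wholly above 0 for 25 of 36 complex I subunits, 2 of 4 of complex II and 5 of 9 of complex III. It did so for 3 of 13 of complex IV and 6 of 15 of complex V, against 39.3% of all genes. The share of complex V was thus near that of all genes, and that of complex IV was below it. The signs for complexes III, IV and V depend on the settings. The complex I median was between 0.23 and 0.32 under the 3 other scalings. These scalings shift all genes alike, by 0.03, 0.02 and -0.06 in this comparison, so that range was nearly fixed in advance and tests nothing. Ndufa5 had the highest ratio, 0.85 (0.69 to 1.01), followed by Ndufb4 at 0.80 (0.32 to 1.28), Ndufb11 at 0.71 (0.60 to 0.81) and Ndufab1, the mitochondrial acyl carrier protein, at 0.70 (0.34 to 1.07). Of these, Ndufb4, Ndufb11 and Ndufab1 share 37.9%, 24.9% and 40.6% of their stretches with other genes, and Ndufa5 1.20%. Outside complex I, the highest subunits were Atp5k at 0.70 (0.34 with transcripts of any length), Atp5o at 0.42, Uqcrb at 0.42 and Cox7b, a small complex IV subunit, at 0.39.

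The oxidative phosphorylation genes have short transcripts, and length bears on how FPKM is computed. The median length was 645.5 bases, from 285 to 3632, and 65 of the 94 were under 1000 bases. The median of the other measured genes was 2621. Genes with a main transcript of at least 1000 bases had a median ratio of -1.02 in Ngn3-TOMATO, with 17 of 29 (58.6%) at least 2-fold lower. The shorter ones had a median of -0.82, with 7 of 58 (12.1%) at least 2-fold lower. The share over all genes was 9.91%, near that of the shorter ones. In GIP-GFP the medians were -0.88 and -0.64. Other genes under 1000 bases had medians of -0.11 and -0.06. Across the 87 genes the Spearman rho of length with the ratio was -0.302 in Ngn3-TOMATO and -0.190 in GIP-GFP, given as a description.

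Other abundant genes differed less by their medians. The 1585 other genes with a mean level over 100 scaled FPKM had medians of -0.18 in Ngn3-TOMATO and -0.22 in GIP-GFP. At least 2-fold lower were 269 (17.0%) and 344 (21.7%) of them, against 27.6% and 23.0% of the 87 oxidative phosphorylation genes. The 318 such abundant genes with a main transcript under 1000 bases had medians of -0.27 and -0.33 and shares of 15.7% and 24.8%. In GIP-GFP the share past 2-fold was thus near that of other abundant genes. The 34 oxidative phosphorylation genes measured with no shared 36-base stretch had medians of -0.82 and -0.79.

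Enterocyte markers were also lower in the reporter libraries, and by more. All 12 were below 0 in both comparisons, with medians of -2.31 in Ngn3-TOMATO and -1.97 in GIP-GFP, and Fabp2, a fatty acid binding protein, stood at 2910, 2211 and 11312. The 8 cycling markers had medians of -1.53 and -1.81. The part of either in the oxidative phosphorylation values was not tested.

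Other gene groups were read from lists chosen with the same results known. The 13 tricarboxylic acid cycle genes, which feed electrons to complexes I and II, were all below 0 in both comparisons. Their medians were -1.03 in Ngn3-TOMATO and -0.84 in GIP-GFP. At least 2-fold lower were 8 (61.5%) and 5 (38.5%), against 9.91% and 13.8% of all genes. Cs, citrate synthase, was at 254, 213 and 591.5 and had the lowest ratio in Ngn3-TOMATO, -1.47. Mdh2, malate dehydrogenase, was the most abundant at 756, 812 and 1929. Suclg2, at 26.3, 33.1 and 73.5, had the lowest in GIP-GFP, -1.45, and Idh3b, at 375, 218 and 411, the highest, -0.13.

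The mitochondrial ribosome, which translates the mitochondrially encoded subunits, differed less, with medians of -0.60 and -0.53 over 75 genes. At least 2-fold lower were 7 (9.33%) and 4 (5.33%), at or below the 9.91% and 13.8% of all genes. Mrpl12 had the lowest ratio in Ngn3-TOMATO, -1.23, from 113, 111 and 261.5. Protein import genes had medians of -0.60 and -0.44 over 24 genes. The 34 other assembly factors measured had medians of -0.49 and -0.30. Uqcc2, a complex III assembly factor, was the highest of these in both comparisons, at 225.5, 158 and 103, with ratios of 0.61 and 1.12. The proteasome, a cytosolic complex, had medians of -0.39 and -0.23 over 37 genes. Cytosolic ribosomal proteins had medians of -0.60 and -0.61 over 80 genes, many of which have copies that share reads.

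Among electron carriers and carriers of nucleotides and phosphate, the ADP/ATP exchangers went opposite ways. Slc25a4, the form typical of heart and muscle, stood at 260.1 scaled FPKM for GIP-GFP, 149.6 for Ngn3-TOMATO and 20.3 for Ngn3-negative. Its ratios were 2.82 (2.63 to 3.01) in Ngn3-TOMATO and 3.62 (3.42 to 3.81) in GIP-GFP. Slc25a5, the widely expressed form, was at 515, 401 and 850.6, with ratios of -1.08 and -0.72. Slc25a3, the phosphate carrier, was the most abundant at 589, 618 and 1371, with ratios of -1.15 and -1.22. Gpd2, the glycerol phosphate dehydrogenase that passes cytosolic electrons to ubiquinone, was at 180.0, 58.5 and 89.8, and had the highest GIP-GFP to Ngn3-TOMATO ratio of the list, 1.61. Over the 11 genes the medians were -0.80 and -0.72.

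Of the 14 regulators of mitochondrial genes, 12 were below 0 in Ngn3-TOMATO and 11 in GIP-GFP, against 48.3% and 46.9% of all genes. The medians of the 14 regulators were -0.56 and -0.63. Ppargc1a, the coactivator PGC-1alpha, was at 5.10, 7.92 and 29.4 and had the lowest ratio in both, -1.77 (-2.07 to -1.47) and -2.32 (-2.66 to -1.98). Esrra, the nuclear receptor ERRalpha with which it acts, was the most abundant at 66.7, 107 and 219, with ratios of -1.03 and -1.70. Gabpb1, a partner of Gabpa, was the highest in both, at 49.2, 35.6 and 28.6. Both Ppargc1a and Esrra were lowest in GIP-GFP.

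Glycolysis genes had no common direction, with 8 of 14 below 0 in both comparisons, against 48.3% and 46.9% of all genes. The medians of the glycolysis genes were -0.74 and -0.42. Hk2, a hexokinase, was at 139, 64.5 and 14.9, with ratios of 2.04 and 3.14. The vacuolar proton ATPase, a related rotary pump that uses ATP to acidify vesicles, had medians of 0.67 and 0.74, with 15 and 14 of 16 genes above 0. At least 2-fold higher were 3 and 6, against 19.2% and 20.9% of all genes, so the first count is near that of all genes. Atp6v1b2, a head subunit, was at 236, 376 and 82.1, with ratios of 2.18 and 1.51. Atp6v0a2 went the other way, at 251, 295 and 455, with ratios of -0.62 and -0.86, the lowest of the list in both comparisons. Between the reporter libraries the genes of this pump were spread evenly around a median of 0.00.

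**Figure D4:**
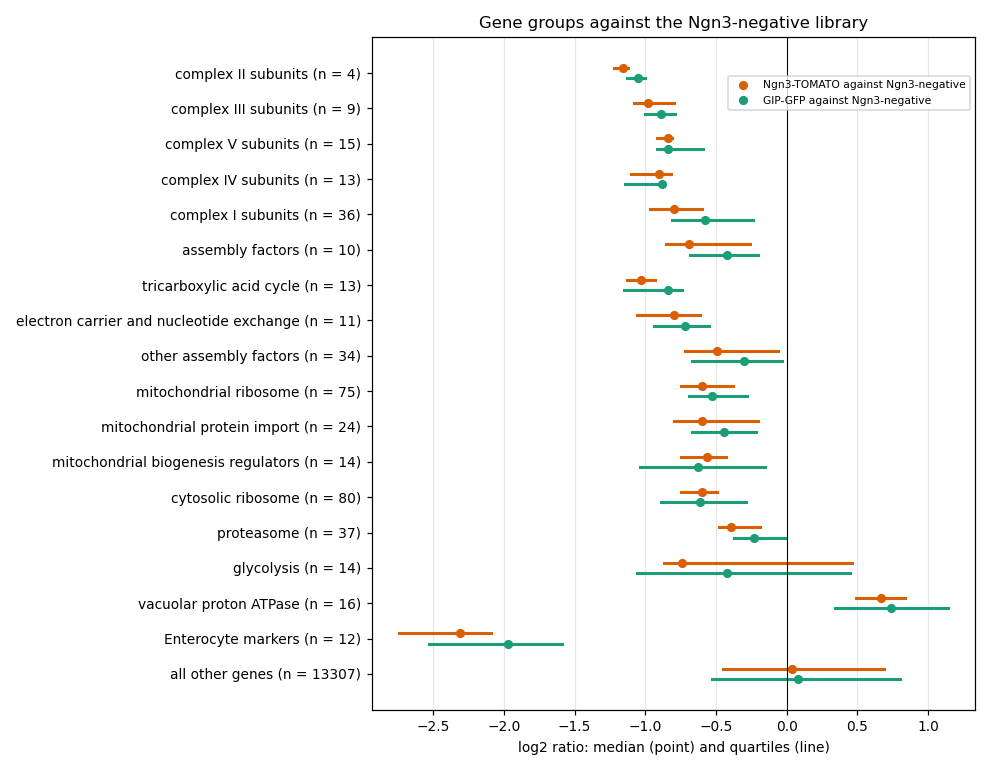
Median log2 ratio (points) and quartiles (lines) of gene groups in Ngn3-TOMATO (orange) and GIP-GFP (green) against Ngn3-negative, with the number of genes measured in the first comparison. Complexes I to V and the tricarboxylic acid cycle lie between -0.58 and -1.16, the vacuolar proton ATPase near 0.7, the enterocyte markers near -2 and all other genes near 0.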

How the data were processed

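Polyadenylated RNA of sorted cells was sequenced without amplification of the RNA on a Genome Analyzer II, per the labels' protocols. FastQC, TopHat 1.5.0, Cufflinks and the mm10 genome are named in the submitters' processing notes. The authors deposited, per the file headers, an FPKM value with confidence limits and a read coverage signal for each UCSC transcript. Within a library FPKM was a constant multiple of coverage, and the sum was far from that of values per 1000000 reads, so all values were divided by 8083, which set the mean library total to 1000000.

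Transcripts were matched to GENCODE M21 genes by overlap and length (50950 of 59120 matched). FPKM was summed per symbol over transcripts of at least 200 bases, leaving out mitochondrial rows and transcripts marked as having too many reads (0 for GIP-GFP, 4 for Ngn3-TOMATO, 9 for Ngn3-negative); all 135 transcripts of the genes described were marked OK. Genes with at least 1 scaled FPKM in either library were compared by log2 ratio, pseudocount 1; intervals (95%) took the deposited limits as 2 standard errors. Strand was not used. Shared sequence was counted in 36-base windows of the annotated transcripts. With 1 library per group no test was run. The calculation of ratios was tested on simulated counts with known folds. Those counts carried their own counting error, so the deposited limits were not checked by them. Coverage totals set the depth, and no read counts were used.

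Genes named in full were the complex II genes, catalytic or core subunits, isoform groups, the highest, lowest and most abundant gene of each complex and list, and genes at 0, except 2 genes whose values are not reported here. The genes and lists were chosen with earlier results of these data known. In all, 12 alternatives were planned, and shared sequence and match quality were added after seeing the data. Python 3.11.15, numpy 2.4.6, pandas 2.3.3, scipy 1.17.1 and matplotlib 3.10.9 were used.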

Additional observations from a re-analysis of the deposited data

How the results depend on the processing

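Direction was kept under all 14 alternatives for the median of the oxidative phosphorylation genes in both comparisons with Ngn3-negative, and scaling moved its size. With equal library totals the medians were -1.11 in Ngn3-TOMATO and -0.95 in GIP-GFP, with 61 and 41 genes at least 2-fold lower; without the 20 most abundant genes in the totals they were -0.71 and -0.56, with 10 and 9. These scalings shifted all genes by -0.25 and -0.22, and by 0.15 and 0.17. Relative to the median of all genes, the medians were -0.89 and -0.80 as reported, -0.91 and -0.81 with equal totals and -0.89 and -0.80 without the abundant genes. Because a scaling shifts all genes alike, this difference was nearly fixed in advance and does not test the scaling. Of all genes past 2-fold, 34.1% and 39.7% were lower as reported, and 46.9% and 49.3% with equal totals; the oxidative phosphorylation genes past 2-fold were all lower in each setting. Between the reporter libraries, the 2 genes at least 2-fold lower became 1 with a pseudocount of 5 or transcripts of at least 500 bases, and 0 without genes sharing over 20% of their windows; 1 gene was 2-fold higher when the most abundant transcript stood for a gene. No paired analysis was possible because each group has 1 library. Leaving out a library was not possible for the same reason. Low genes such as Cox6b2, with a standard error of 29.9% in GIP-GFP, are limited by depth.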

Other observations

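Of the mitochondrially encoded subunits, which are not among the 94 genes, only mt-Nd2 was quantified in all 3 libraries. It stood at 15735 scaled FPKM for GIP-GFP, 8692 for Ngn3-TOMATO and 33071 for Ngn3-negative. Like most nuclear complex I genes it was highest in Ngn3-negative and lowest in Ngn3-TOMATO. Mt-Co2 and mt-Atp6 were listed at 0 in both reporter libraries and had too many reads to process in Ngn3-negative, so these zeros are not read as absence. Mt-Co1 was quantified only in GIP-GFP, at 27461. The libraries were selected for polyadenylated RNA, and the tables list few mitochondrial rows.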
